A study of Mus musculus with 15 samples.

Results

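The probe sets described here read the nuclear-encoded genes of the mitochondrial respiratory chain, the ATP synthase, the protein import translocases and the SLC25 inner-membrane carriers, in embryonic mouse mammary buds and ventral skin. They are every probe set on the authors' 4 deposited gene lists whose symbol, as written there or as updated through its Entrez ID, starts with Nduf, Sdh, Uqcr, Cox and a digit, Cyc, Atp5, Timm, Tomm or Slc25. This rule gave 79 probe sets of 62 genes, out of 22690 probe sets in the array table and 2416 on the lists. By role they were 25 probe sets of 20 complex I genes, 1 of complex II, 6 of complex III with cytochrome c, 13 of complex IV, 12 of the ATP synthase, 13 of the import translocases and 9 of the carriers. The respiratory chain and the ATP synthase in the strict sense thus made up 57 probe sets of 45 genes. Cox15, a heme A synthesis enzyme, and Cox19, a copper chaperone, are assembly factors of complex IV that the name rule also takes in. A complex I probe set labelled Ndufs5 has an Entrez ID that now names the pseudogene Ndufs5-ps, so which of the near-identical transcripts it reads is uncertain.

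All tissue came from CD-1 embryos on embryonic day 15, and there were 5 groups of 3 Affymetrix MOE430A arrays. The bud groups were WT and labelled PTHrP-/-, and the ventral skin groups were WT, a second WT ventral skin set labelled K14WT that served as the comparison for the transgenic skin, and skin labelled K14-PTHrP. Embryos labelled PTHrP-/- should lack parathyroid hormone-related protein, which the bud epithelium makes and the mesenchyme around it senses. In embryos labelled K14-PTHrP the keratin 14 promoter, active in basal keratinocytes, drives PTHrP in the epidermis, so the transgene acts from a cell layer wider than the bud. Tissue was pooled by genotype, with 120 buds on average for about 20 ug of RNA, and it is not stated whether replicate arrays had pools of their own. The p-values therefore cover only the spread between the arrays at hand, which may be technical.

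The respiratory chain sits in the inner mitochondrial membrane. Complexes I and II pass electrons from NADH and succinate to ubiquinone, complex III passes them on to cytochrome c, and complex IV hands them to oxygen. Complexes I, III and IV pump protons, and the ATP synthase makes ATP as the protons flow back. Most subunits are encoded in the nucleus and enter through the TOM complex of the outer membrane and the TIM complexes of the inner membrane, while SLC25 carriers exchange ADP, ATP and metabolites across the inner membrane. Striated muscle is rich in mitochondria and uses tissue-specific isoforms of some subunits.

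The lists bind what may be read from the members. The 17 members on the list of probe sets higher in buds labelled PTHrP-/- and the 60 on the list of lower ones were chosen by the authors on the bud arrays themselves, and the lists made from WT skin and WT buds held 2 members higher and 1 lower in skin. The bud comparison is therefore a description here, and so is the comparison of WT skin with WT buds, which shares the WT bud arrays. The authors' lists were not made from the skin arrays labelled K14-PTHrP and K14WT, and the name rule uses no value from them. Of the 79 members, 77 passed the filter on dim probe sets, which kept those that exceeded the array median on 3 or more of 15 arrays, and 76 exceeded it on all 15. The 2 that did not pass were Cyct, the testis form of cytochrome c, with a mean log2 level of 3.53, and Cox4i2, an alternative form of the cytochrome c oxidase subunit Cox4i1, with 3.30.

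The targeted gene, Pthlh, did not follow the labels: its probe set read 4.87, 5.85 and 5.57 in WT buds against 6.81, 6.28 and 6.11 in those labelled PTHrP-/-, and 4.38, 3.86 and 4.23 in K14WT skin and 3.60, 3.64 and 3.39 in skin labelled K14-PTHrP. No source used here says whether these probes lie in the deleted part or in the transgene, so the groups are called by their labels and each direction rests on them.

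Correlations between arrays over all 22690 probe sets, dim and control ones included, ran from 0.986 to 0.998 within groups and from 0.978 to 0.996 between them. At 123 probe sets all 3 WT skin arrays stood over 1 log2 unit apart from the other 12 arrays, 62 of them below and 61 above, and 1 member, Tomm7, was among these. The third array labelled K14-PTHrP had a 3′ minus 5′ Gapdh probe difference, a measure of RNA integrity, of 1.19, against 0.30 and 0.44 on the other 2 arrays of its group. Krt18, a keratin of simple epithelia, had a mean log2 level of 8.71 ± 0.10 in WT buds, 7.73 ± 0.37 in WT skin and 7.17 ± 0.18 in K14WT skin (SD, n = 3). Markers carry names here only through the authors' lists, which were chosen on the same arrays and labels, so this is no independent check of the tissue labels. In bulk tissue, fewer cells of a type and less RNA per cell cannot be told apart.

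**Figure D1:**
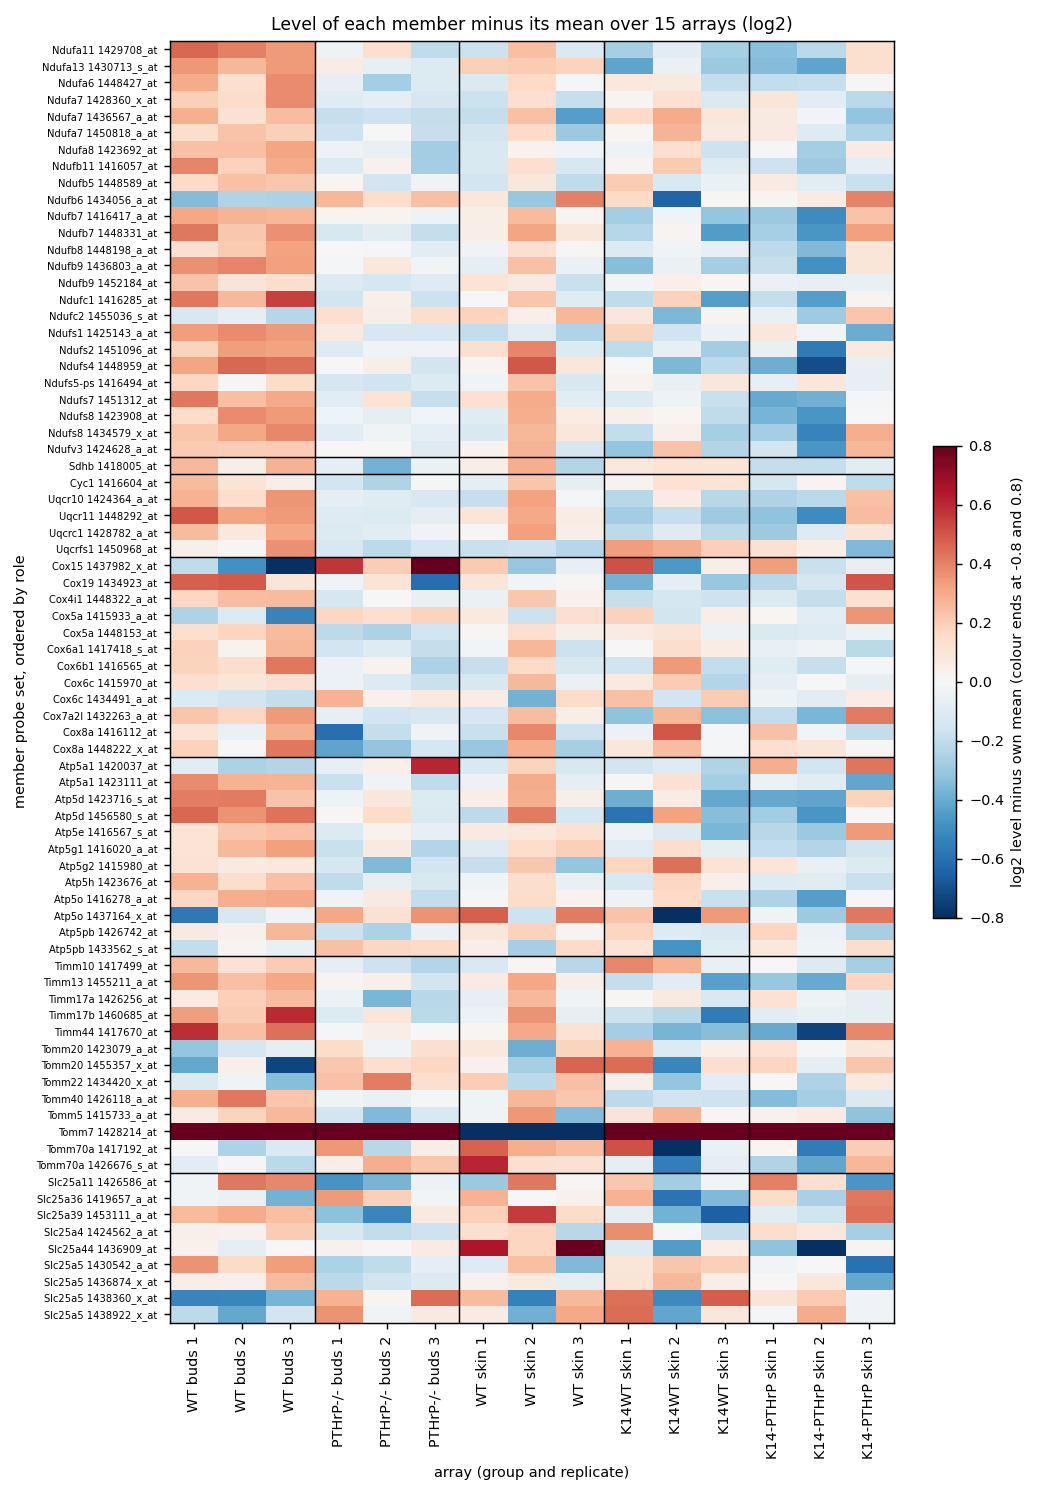
Level of each of the 77 kept member probe sets (rows, ordered by role) on each of the 15 arrays (columns, by group), as the log2 level minus that probe set's own mean over the 15 arrays; red is above and blue below, and colour ends at -0.8 and 0.8. Most rows are red on the 3 WT bud arrays and again on the second WT skin array, and the Tomm7 row is blue on the 3 WT skin arrays alone.

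Across the bud comparison, 60 of the 77 kept members were lower and 17 higher in the buds labelled PTHrP-/- than in those of WT embryos, with a median difference of -0.33 on the log2 scale against -0.03 over all 11692 tested probe sets. The arrays of the 2 bud groups did not overlap for 58 members that were lower, where 18% of all tested probe sets were lower without overlap, and for 15 that were higher, where 14.2% were higher. No member passed an adjusted p of 0.05 (limma with Benjamini-Hochberg adjustment over all tested probe sets), where 0.0342% of all tested probe sets did, and 57 members had an unadjusted p under 0.05 against 1647 of all tested. Since the lists were chosen on these arrays, the counts describe the choice. The lower and upper quartile of the members' differences lay at -0.40 and -0.24, with a median standard error of 0.14. The 60 kept members on the lower list ran from -0.55 to -0.23, and the 15 on the higher list from 0.25 to 1.13. These sizes describe the choice as well.

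In complex I, the NADH dehydrogenase, 23 of 25 probe sets were lower in buds labelled PTHrP-/-, with a median of -0.34. Ndufc1, a small accessory subunit, read 9.19, 9.03 and 9.32 in WT buds against 8.62, 8.81 and 8.60 in those labelled PTHrP-/-, a difference of -0.50 ± 0.16 (SE). Ndufs1, the large iron-sulfur subunit that carries electrons from NADH inward, read 8.52, 8.57 and 8.53 in WT buds against 8.27, 8.06 and 8.06 in those labelled PTHrP-/-. For both genes every WT bud array was above every array of buds labelled PTHrP-/-. The 3 probe sets of Ndufa7, an accessory subunit, were lower by similar amounts, at -0.40, -0.34 and -0.31. Ndufa13, an accessory subunit also known as Grim19, differed by -0.36 ± 0.14. The 2 exceptions in this complex were Ndufb6 and Ndufc2, both accessory subunits of the membrane arm, which were higher by 0.50 ± 0.20 and 0.25 ± 0.14.

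Complex II was represented by Sdhb alone, the iron-sulfur subunit of succinate dehydrogenase. It read 9.86, 9.65 and 9.88 in WT buds against 9.53, 9.23 and 9.55 in those labelled PTHrP-/-, with no overlap and a difference of -0.36 ± 0.13. All 5 kept probe sets of complex III and cytochrome c1 were lower, from -0.48 for Uqcr11, a small subunit, to -0.27 for Cyc1, the cytochrome c1 heme protein. Uqcrfs1, the Rieske iron-sulfur protein, read 9.90, 9.88 and 10.22 in WT buds against 9.73, 9.65 and 9.72 in those labelled PTHrP-/-.

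In complex IV, cytochrome c oxidase, 9 of 12 kept probe sets were lower. Cox4i1, a regulatory subunit next to the catalytic core, read 12.19, 12.27 and 12.28 in WT buds against 11.89, 12.03 and 11.97 in those labelled PTHrP-/-, a difference of -0.29 ± 0.10. Cox6a1 and Cox7a2l, which belong to families with muscle isoforms, differed by -0.31 and -0.36. The 2 probe sets of Cox8a, the ubiquitous form of the smallest subunit, differed by -0.50 and -0.39. No muscle isoform of these subunits was among the members. The highest value in the opposite direction was that of Cox15, which read 6.01, 5.73 and 5.21 in WT buds against 6.79, 6.42 and 7.12 in those labelled PTHrP-/-, a difference of 1.13 ± 0.27. It was read by a single probe set whose suffix, x_at, marks probes that can also bind other transcripts.

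Among the ATP synthase probe sets, 9 of 12 were lower, with a median of -0.31. Atp5h, a subunit of the stalk that holds the catalytic head, read 12.02, 11.89 and 11.98 in WT buds against 11.54, 11.68 and 11.62 in those labelled PTHrP-/-, again with no overlap. Atp5g2, 1 of the genes for subunit c of the proton-driven rotor, read 10.54, 10.50 and 10.51 in WT buds against 10.29, 10.08 and 10.27 in those labelled PTHrP-/-. The 3 higher probe sets belonged to Atp5a1, Atp5o and Atp5pb, each of which also had a lower one.

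The import translocases split more than the chain itself, with 8 of 13 probe sets lower. Tomm40, the channel of the outer membrane, read 9.34, 9.48 and 9.28 in WT buds against 9.02, 9.01 and 9.05 in those labelled PTHrP-/-. Timm44, which tethers the import motor to the inner membrane channel, differed by -0.41 ± 0.21, and Timm17b, a channel subunit of the inner membrane, by -0.46 ± 0.15. The receptors went the other way: both probe sets of Tomm20 were higher, by 0.26 and 0.54, as were both of Tomm70a, by 0.29 and 0.18, though the arrays overlapped for the latter.

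Of the carriers, Slc25a11, the 2-oxoglutarate carrier, differed by -0.55 ± 0.24 and Slc25a39, a carrier linked to mitochondrial glutathione, by -0.52 ± 0.20. Slc25a4, the ADP/ATP exchanger of heart and muscle, read 11.68, 11.68 and 11.84 in WT buds against 11.51, 11.44 and 11.48 in those labelled PTHrP-/-, a difference of -0.25 ± 0.15. Its ubiquitous partner Slc25a5 had 4 probe sets, of which 2 were lower, by -0.46 and -0.28, and 2 higher, by 0.72 and 0.39.

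**Figure D2:**
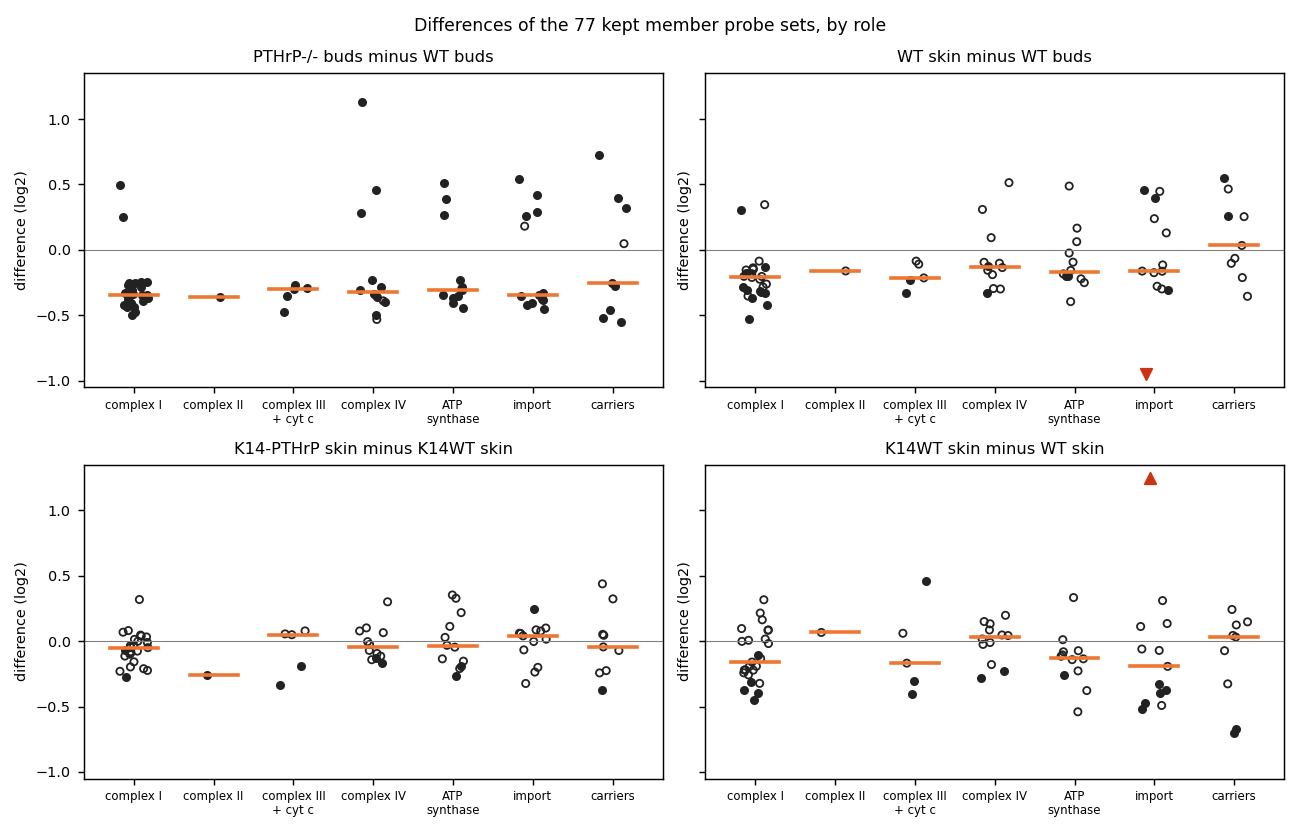
Differences on the log2 scale for the 77 kept member probe sets, by role, in the 4 comparisons; each point is a probe set, filled where the 3 arrays of 1 group do not overlap the 3 of the other, and the bar is the median of the role. Points in the bud panel lie in a band below 0 and a smaller set above it, and the triangles mark Tomm7, whose differences of -6.42 and 6.30 lie beyond the axis.

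Markers of other cells differed in the same bud arrays. Each marker was read by its brightest named probe set, and other probe sets of the same gene were not counted. All 14 of 23 skeletal muscle markers that carried a name here were lower in buds labelled PTHrP-/-, and their summed signal on a linear scale was 13073 to 14272 in WT buds against 9047 to 10869 in those labelled PTHrP-/-. All 9 named of 10 markers of the bud and simple epithelium were lower as well, with a summed signal of 4637 to 4867 in WT buds against 2982 to 3980 in those labelled PTHrP-/-. All 3 named basal keratinocyte markers were lower too, with sums of 6624 to 7552 against 5395 to 5765. Both named markers of epidermal differentiation were lower, with 17818 to 18148 against 14547 to 15664. So were 3 of 3 endothelial, 3 of 4 erythroid, 2 of 3 leukocyte and 2 of 2 adipocyte markers and the 1 of nerve. Of 7 named of 11 markers of dermal mesenchyme 5 were higher, and their summed signal overlapped, at 20165 to 23142 and 21434 to 25152. These markers carry names only because they are on the same lists, and their part in the members' differences was not tested. The summed muscle signal was 17356 to 23485 in K14WT skin and 9581 to 15383 in WT skin. The mean of the members listed as lower was taken with each probe set centred over the 15 arrays and without Tomm7. It was -0.06, 0.06 and -0.16 in K14WT skin, -0.05, 0.22 and -0.07 in WT skin and 0.25, 0.21 and 0.29 in WT buds. Skin and buds differ as tissues, so these values do not bear on muscle within buds.

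For 6 of the 14 genes read by more than 1 probe set, the probe sets had opposite signs in the bud comparison: Atp5a1, Atp5o, Atp5pb, Cox5a, Cox6c and Slc25a5. By the authors' lists alone, 6 of 13 member genes with several probe sets on the 2 bud lists, or 46.2%, were on both of these lists, and 50 of 187 other genes, or 26.7%, were. Cox5a, a subunit at the matrix side of complex IV, shows the pattern. Its lower probe set read 10.72, 10.75 and 10.84 in WT buds against 10.37, 10.33 and 10.43 in those labelled PTHrP-/-, while the higher one read 11.56, 11.70 and 11.28 in WT buds against 11.97, 11.94 and 11.99 in those labelled PTHrP-/-. The bud groups did not overlap with either probe set, and the order of the groups was opposite in the 2. Cox6c, another small subunit of complex IV, read 11.35, 11.31 and 11.35 against 11.17, 11.10 and 11.04 with the lower probe set, and 10.80, 10.77 and 10.72 against 11.20, 10.95 and 10.99 with the higher. For Slc25a5 the lower probe set with the wider difference read 10.50, 10.30 and 10.48 against 9.89, 9.94 and 10.07, and the higher one read 9.34, 9.34 and 9.50 against 10.14, 9.89 and 10.31. The other 8 genes with several probe sets, such as Ndufa7, Cox8a and Tomm20, kept 1 sign in buds.

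Subtracting 1 probe set's log2 level from that of another for the same gene on the same array takes out the gene's own level where both read the same transcripts, and this difference shifted between arrays. For Slc25a5 it was 1.16, 0.96 and 0.98 in WT buds against -0.25, 0.05 and -0.25 in those labelled PTHrP-/-. In the skin groups it was 1.06 on the second WT skin array and 1.0 on the second K14WT array, and between -0.34 and 0.15 on the other 7. For Cox6c the same 2 skin arrays read 0.94 and 0.66, above the 7 others at -0.13 to 0.38 and above the WT buds at 0.54 to 0.63. For Cox5a they read -0.92 and -0.97 and the 7 others -1.63 to -1.25, for Atp5o, the stalk subunit OSCP, 1.60 and 2.90 against 0.77 to 1.14, and for Atp5pb, subunit b of the stalk, -1.28 and -1.35 against -2.13 to -1.64. In these 5 genes the second WT skin array and the second K14WT array stood apart from the other skin arrays on the side of the WT buds, and the second array labelled K14-PTHrP did not. Atp5a1, the catalytic-head alpha subunit, was the exception, with 3.84 and 3.95 on those 2 arrays and 2.88 to 3.89 on the others.

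**Figure D3:**
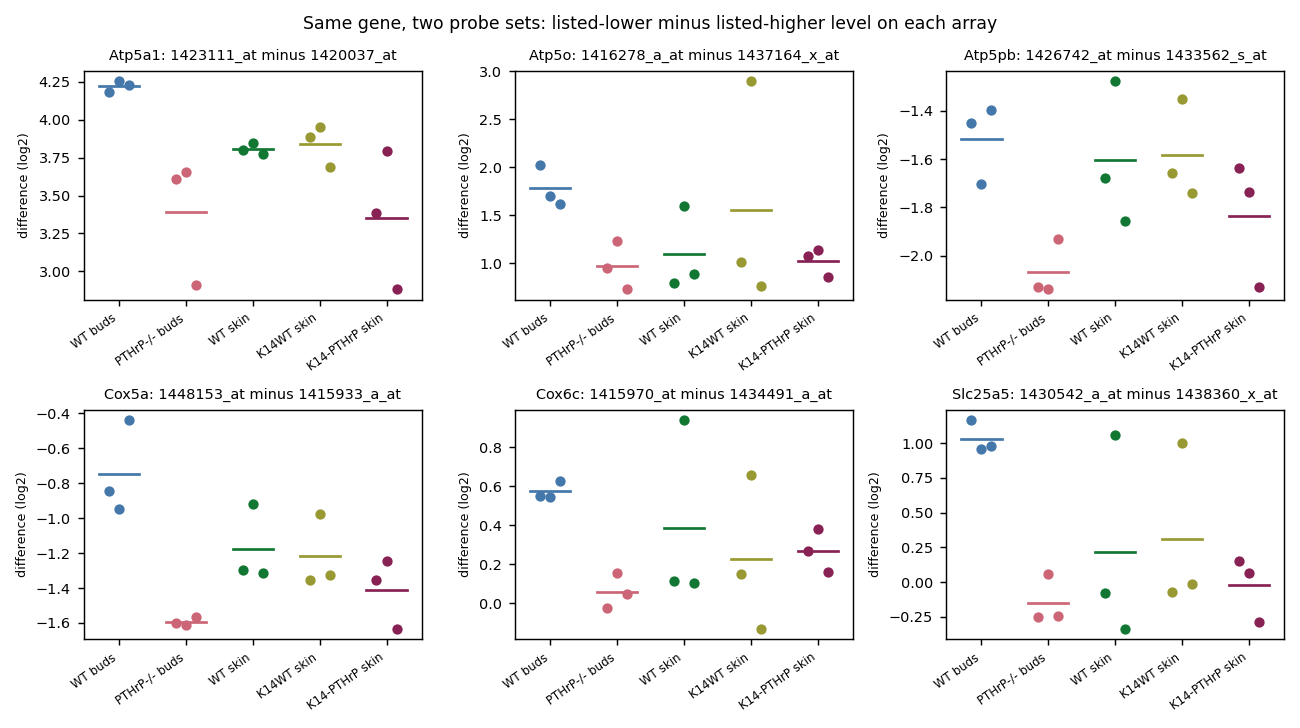
Difference in log2 level between the probe set listed as lower and the probe set listed as higher in buds labelled PTHrP-/-, for 6 genes on both lists; points are arrays in 5 groups of 3 and bars are group means. In the Slc25a5 panel 1 WT skin array at 1.06 and 1 K14WT array at 1.0 sit beside the WT buds, while the other skin arrays lie at or below 0.15.

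The means over members set the same arrays apart. The mean of the 15 kept members on the higher list, each centred over the 15 arrays, was -0.24, -0.17 and -0.32 in WT buds against 0.23, 0.12 and 0.25 in those labelled PTHrP-/-. It was 0.17, -0.20 and 0.20 in WT skin and 0.22, -0.45 and 0.04 in K14WT skin, so the second array of each of these groups lay on the side of the WT buds. The mean of the members on the lower list without Tomm7 was 0.22 on the second WT skin array and -0.05 and -0.07 on the other 2. The median SD of the members was 0.0962 in WT buds, where that of all tested probe sets was 0.128. For buds labelled PTHrP-/- these were 0.0941 and 0.115. Listing used the bud arrays, so this low spread may describe the choice. WT skin had 0.182 for the members, above 0.124 for all tested probe sets. K14WT skin had 0.170 and 0.178, and skin labelled K14-PTHrP 0.219 and 0.202, so the members were near all tested probe sets there. The 3′ minus 5′ Gapdh difference was 0.66 on the second WT skin array, below 0.82 and 0.91 on the others, and 0.78 on the second K14WT array, above 0.56 and 0.46. In buds it was 1.0, 1.03 and 0.72 in WT and 1.41, 1.29 and 0.67 in the group labelled PTHrP-/-. The same difference for actin was 1.67, 1.56 and 1.20 in WT buds against 1.87, 1.91 and 1.43 in those labelled PTHrP-/-. The 18S ribosomal RNA control probe set read 9.10, 8.97 and 8.62 in WT buds against 9.22, 9.74 and 9.72, without overlap. The part of RNA integrity and of 18S in the members' values was not tested.

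**Figure D4:**
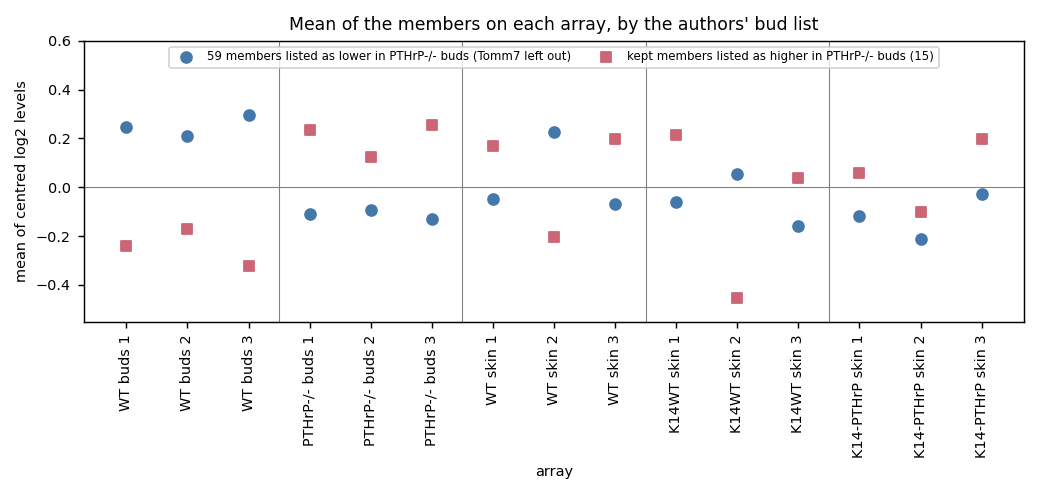
Mean over members of the log2 level centred on each probe set's mean over 15 arrays, on each array, for the members on the list of lower probe sets (circles, without Tomm7) and of higher ones (squares). The circles lie above the squares on the 3 WT bud arrays, the second WT skin array and the second K14WT array, and below them on the other 10.

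The sign differed in part by probe type. Of the 10 member probe sets with the suffix x_at, 6 were higher in buds labelled PTHrP-/- and their median was 0.41, while 32 of 35 kept members with the plain suffix _at, whose probes are unique in design, were lower, with a median of -0.38. Of the 24 kept members with the suffix a_at 5 were higher, and of the 8 with s_at 3 were. The 15 kept members on the higher list were 6 with x_at, 5 with a_at, 3 with s_at and 1 with plain _at. Over all tested probe sets 662 of 1087 with x_at were higher, a share near that of the members, and 3935 of 7177 with _at were lower. Their medians were 0.08 and -0.03. With a_at 1036 of 2471 were higher, and with s_at 437 of 957. The members were listed on these arrays, so the sizes of their medians describe the choice. Without the x_at and s_at probe sets the median of the members was -0.34.

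The K14-PTHrP comparison asks whether PTHrP in the epidermis moves the same genes in skin, on arrays from which the lists were not made. No member passed an adjusted p of 0.05 (limma with Benjamini-Hochberg adjustment; the lowest was 0.336), where 0.71% of all tested probe sets did, and 4 members had an unadjusted p under 0.05 against 1381 of all tested. The median difference was -0.03 against -0.01 over all tested probe sets. With the arrays centred on 1 median it was 0.04 against 0.06 over all tested probe sets, so it stayed below theirs. Arrays did not overlap for 10 lower members, or 13.0%, against 6.6% of all tested probe sets, and for 1 higher member, or 1.30%, against 4.74%. The 10 were Atp5g1, Atp5g2, Slc25a5, Ndufa7, Ndufb9, Sdhb, Cyc1, Uqcrfs1, Cox5a and Cox6a1, each with 1 probe set, and the higher member was Timm17b.

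Uqcrfs1 read 10.19, 10.15 and 10.05 in K14WT skin and 9.98, 9.91 and 9.50 in skin labelled K14-PTHrP, a difference of -0.33 ± 0.13 (adjusted p = 0.346 with limma). Sdhb read 9.69, 9.72 and 9.71 in K14WT skin and 9.41, 9.41 and 9.51 in skin labelled K14-PTHrP, a difference of -0.26 ± 0.13 (limma adjusted p = 0.464). Cyc1 read 10.76, 10.84 and 10.84 in K14WT skin and 10.59, 10.75 and 10.52 in skin labelled K14-PTHrP. In all 3 genes every K14WT array lay above every array labelled K14-PTHrP, and none passed the test. The mean in WT skin was 9.67 for Uqcrfs1, below the 9.80 in skin labelled K14-PTHrP. For Sdhb and Cyc1 it was 9.64 and 10.75, above 9.44 and 10.62 in skin labelled K14-PTHrP. The same lower-listed probe set of Slc25a5 read 10.24, 10.36 and 10.34 against 10.12, 10.14 and 9.55, and the higher-listed one read 10.31, 9.36 and 10.35 against 9.97, 10.08 and 9.84, which overlap. Atp5g2 read 10.60, 10.87 and 10.54 in K14WT skin and 10.52, 10.37 and 10.32 in skin labelled K14-PTHrP. Timm17b read 6.78, 6.73 and 6.39 in K14WT skin and 6.87, 6.90 and 6.88 in skin labelled K14-PTHrP, a difference of 0.25 ± 0.15 (limma adjusted p = 0.500).

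By list, 41 of the 60 members listed as lower in buds labelled PTHrP-/- were also lower in skin labelled K14-PTHrP, with a median of -0.07, and of the other 1347 tested probe sets on that list 530 were lower, with a median of 0.07. The 15 members listed as higher had a median of 0.07 in skin and 11 of them were positive. Of the other 510 tested probe sets on that list 292 were positive, with a median of 0.04. Leaving out the second K14WT array turned the median of the members listed as higher to -0.09, with 4 of 15 positive, and left 32 of 60 members listed as lower below 0. Leaving out any other array of the 2 groups left 9 to 14 of the 15 positive and 35 to 50 of the 60 lower. With the arrays centred on 1 median, 30 of the 60 were lower, and the median of all tested probe sets was 0.06. After quantile normalization 46 of the 60 were lower. The summed muscle signal was 17356 to 23485 in K14WT and 11845 to 20323 in skin labelled K14-PTHrP, overlapping, and its part was not tested.

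**Figure D5:**
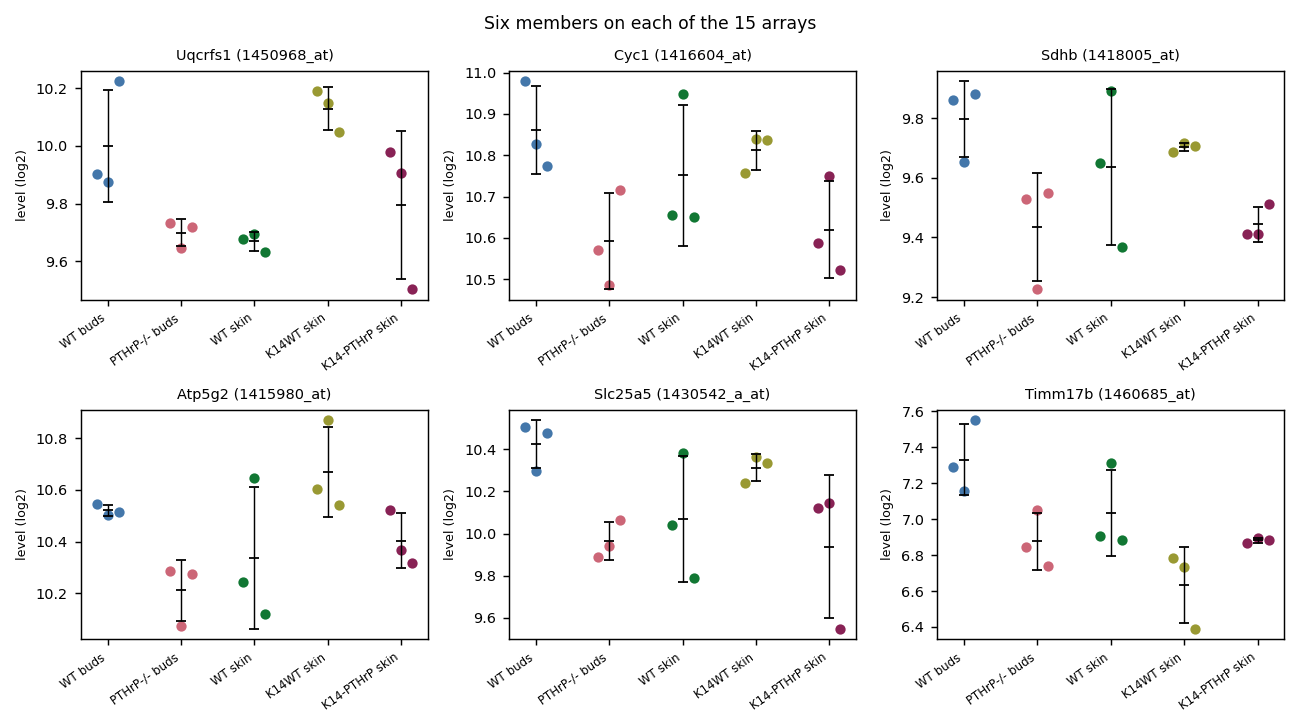
Levels on the log2 scale of 6 members on each of the 15 arrays, by group; points are arrays and the bar with whiskers is the mean ± SD of 3 arrays. Uqcrfs1, Cyc1, Sdhb, Atp5g2 and Slc25a5 lie lower on all 3 arrays labelled K14-PTHrP than on the 3 K14WT arrays and Timm17b lies higher, with none past an adjusted p of 0.05.

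WT skin was compared with WT buds as tissues without a genotype difference. Of the 77 kept members, 59 were lower in skin, with a median of -0.16 against 0.01 over all tested probe sets. Arrays did not overlap for 18 lower members, against 9.39% of all tested probe sets, and for 5 higher members, against 9.4%. A single member passed the adjusted p of 0.05, where 1.78% of all tested probe sets did, and it was Tomm7. Without the second WT skin array the median was -0.26. This comparison shares its WT bud arrays with the bud comparison, so the values stand side by side only.

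Tomm7, a small subunit that helps assemble the outer membrane translocase, read 2.70, 2.58 and 2.67 in WT skin, 9.11, 8.97 and 9.11 in WT buds and 8.99, 9.28 and 8.59 in K14WT skin, which is WT skin too. That reading, under the array medians of 3.86 to 4.04, came from only 1 of the 2 WT skin groups, and Tomm7 belongs to the 123 probe sets at which that group stood apart. Without these probe sets no member passed in the comparison of WT skin with WT buds or in that of the 2 WT skin groups. The members that the authors listed for skin were Ndufs1, which read 7.99, 8.10 and 7.95 in WT skin against 8.52, 8.57 and 8.53 in WT buds, Slc25a44, a branched-chain amino acid carrier, at 6.24, 5.77 and 6.38 against 5.63, 5.52 and 5.59, and 1 probe set of Tomm70a, at 8.20, 8.01 and 7.97 against 7.72, 7.48 and 7.61. In all 3 the skin and bud arrays did not overlap, and K14WT skin, at 8.36, 8.02 and 8.14 for Ndufs1 and 5.48, 5.15 and 5.65 for Slc25a44, overlapped WT skin for Ndufs1 and lay below it for Slc25a44.

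The 2 WT skin groups were compared with each other as a measure of how far like tissue differed between sets. The 2 sets also differed in other measures. The 18S ribosomal RNA control probe set read 6.90, 7.31 and 7.63 in WT skin against 9.27, 10.77 and 10.91 in K14WT skin, and 10.78, 7.50 and 8.32 in skin labelled K14-PTHrP, which overlapped K14WT skin. The summed muscle signal was 9581 to 15383 in WT skin, below all K14WT arrays, and the part of either measure was not tested. Of all tested probe sets 7.36% passed the adjusted p of 0.05, and 2 members did, Tomm7 and Uqcrfs1. Lower members without overlap numbered 17, against 21.4% of all tested probe sets, and higher ones 2, against 9.6%. The median of the members was -0.11 against -0.05 over all tested probe sets. After quantile normalization it was 0.02 against 0.02 over all tested probe sets. Uqcrfs1 read 9.68, 9.70 and 9.63 in WT skin and 10.19, 10.15 and 10.05 in K14WT skin, a difference of 0.46 ± 0.13 (limma adjusted p = 0.0438); the arrays did not overlap. That call was lost without any 1 of the 6 arrays, with limma adjusted p-values from 0.0723 to 0.110. The falls were widest for Slc25a44, at -0.70 ± 0.21, and Slc25a39, at -0.67 ± 0.20, neither of which passed the threshold, with limma adjusted p-values of 0.0559 and 0.0552.

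Genes of neighbouring pathways were named only where the lists name them, and each was read by its brightest named probe set. In buds labelled PTHrP-/-, 7 of 7 named tricarboxylic acid cycle genes, 11 of 11 glycolysis genes and 25 of 26 mitochondrial ribosomal protein genes were lower. Their medians were -0.34, -0.41 and -0.37, and none passed an adjusted p of 0.05 with limma. These genes had 8, 17 and 28 named probe sets, and those beyond the brightest were not counted. These genes carry names through the authors' choice, made in part on these bud arrays, so the counts describe that choice. Tested probe sets that the authors listed for buds, members aside, numbered 1347 lower and 510 higher. Mdh2, the malate dehydrogenase of the cycle, differed by -0.34 ± 0.11, and Gapdh, the glyceraldehyde phosphate dehydrogenase of glycolysis, by -0.50. In skin labelled K14-PTHrP the same lists had medians of 0.18, 0.01 and -0.03, again with none past the threshold. Between the 2 WT skin groups Ogdh and Dlst, subunits of the 2-oxoglutarate dehydrogenase, fell in K14WT skin, by 0.80 and 0.76 on the log2 scale (limma adjusted p = 0.0181 and 0.00695), as did Pfkl, a phosphofructokinase, Pmpca, a subunit of the processing peptidase that removes import signals, and the ribosomal protein Mrpl16. These were 5 genes of the 58 on these lists that carried a name, where 5.98% of all tested probe sets passed as lower. Of the shorter lists, 3 of 5 outer membrane and dynamics genes, 3 of 4 chaperone and protease genes and 2 of 4 peroxide defence genes had lower means in buds labelled PTHrP-/-, with none past the threshold in either direction. Vdac1, the main outer membrane pore, was higher in buds labelled PTHrP-/- by 0.51, and Polg, the mitochondrial DNA polymerase, was the only named biogenesis gene of 10 on the list, at -0.43.

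Promoters of 51 of the 62 member genes were in the RefSeq table used here (build GRCm38.p6), 53 in all, each from 250 bases before to 50 after the annotated start. The motif GCGCATGC, the core of the site bound by nuclear respiratory factor 1, was found on either strand in 9 of 53 member promoters, or 17.0%, and in 2.71% of all 32851 promoters. CCGGAAGT, the core of the site of GABP and other ETS factors, was found in 6 member promoters, or 11.3%, against 3.89%, and AAGATGGCG, the core of the YY1 site, in 3, or 5.66%, against 1.40%. GCGCATGC overlaps its own reverse complement by 6 letters, so 1 palindromic stretch can hold both, and it was counted once per promoter. The median GC content was 58.3% in member promoters and 52.7% in all. The promoters printed are those of the 4 members with the widest difference in buds or in skin labelled K14-PTHrP among those that hold a match, to show where the letters lie. They are Cox15 at chr19:43752951-43753250, minus strand, Ndufc1 at chr3:51408906-51409205, minus strand, Cox8a at chr19:7217567-7217866, minus strand, and Uqcr11 at chr10:80406772-80407071, minus strand, written 5′ to 3′ on the strand of the gene, with matches in capitals.
Cox15: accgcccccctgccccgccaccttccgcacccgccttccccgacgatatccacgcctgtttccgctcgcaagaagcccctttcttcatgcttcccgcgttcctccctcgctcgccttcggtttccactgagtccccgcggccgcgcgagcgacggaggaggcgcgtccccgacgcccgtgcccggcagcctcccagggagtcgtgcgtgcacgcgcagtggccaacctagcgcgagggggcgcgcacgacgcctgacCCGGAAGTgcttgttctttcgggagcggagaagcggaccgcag
Ndufc1: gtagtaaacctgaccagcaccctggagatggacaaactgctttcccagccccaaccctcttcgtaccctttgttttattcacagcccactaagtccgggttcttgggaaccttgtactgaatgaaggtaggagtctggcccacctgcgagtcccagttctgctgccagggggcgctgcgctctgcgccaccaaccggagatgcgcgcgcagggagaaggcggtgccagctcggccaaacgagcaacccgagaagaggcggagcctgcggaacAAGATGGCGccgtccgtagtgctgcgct
Cox8a: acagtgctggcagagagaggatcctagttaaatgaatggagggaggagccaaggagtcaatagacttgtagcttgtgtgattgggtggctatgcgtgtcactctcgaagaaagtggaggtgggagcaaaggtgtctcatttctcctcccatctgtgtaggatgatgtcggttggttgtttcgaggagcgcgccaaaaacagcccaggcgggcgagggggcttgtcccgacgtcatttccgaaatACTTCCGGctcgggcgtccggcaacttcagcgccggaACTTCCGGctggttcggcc
Uqcr11: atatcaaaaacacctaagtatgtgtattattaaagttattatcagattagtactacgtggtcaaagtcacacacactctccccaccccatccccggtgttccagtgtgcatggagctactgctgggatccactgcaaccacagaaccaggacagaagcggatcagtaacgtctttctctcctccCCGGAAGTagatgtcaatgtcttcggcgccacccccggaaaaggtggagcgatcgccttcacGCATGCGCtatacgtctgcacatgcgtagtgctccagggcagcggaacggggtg
Cox15 holds 1 GABP and ETS match and Cox8a holds 2, the latter on the opposite strand. Ndufc1 holds 1 YY1 match, and Uqcr11 holds 1 GABP and ETS match and 1 NRF1 match. Cox15 was higher and the other 3 were lower in buds labelled PTHrP-/-. A match in this window is a description of the letters and says nothing about binding.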

How the data were processed

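RNA was measured on 15 Affymetrix MOE430A arrays in 5 groups of 3, taken from the labels. Per the submitters' processing notes the authors used GCRMA, MAS5 and affy, with no versions given in the sources used here. The deposited value table holds GC-RMA levels as log2 values for 22690 probe sets. The authors' 4 lists give a mean signal per group, an intensity on a linear scale, and a signed fold change, a score whose sign is the direction. The lists come from Cyber-T, per the file headers. GC-RMA models background from probe sequence, and a probe set near background has a compressed difference.

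From the log2 values deposited by the authors, 64 control probe sets were left out and 11692 of 22626 were kept, which exceeded the array median on 3 or more of 15 arrays. Differences were fitted with limma 3.58.1 in R 4.3.3 as 5 group means, with 10 residual degrees of freedom and Benjamini-Hochberg adjustment over all kept probe sets. The threshold was an adjusted p of 0.05. The fit was tested on simulated data. The number of arrays limits the precision. Gene names exist only for listed probe sets, so 13 members were found through their current symbol alone.

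The members and pathway lists were chosen with earlier results of these data known, those of the K14-PTHrP and K14WT arrays included. Named members were those past the threshold in skin, up to 4 of the widest differences each way per comparison among probe sets whose 2 groups did not overlap, the highest and the median probe set of each role, genes with opposite probe sets, members on a skin list and muscle isoforms with their partners. Members beyond this rule complete short counts or carry a printed promoter, and were chosen after their values were seen. Alternatives were other filters, scalings and fits, leaving out each array, and leaving out the probe sets at which WT skin stood apart. That last one was added after seeing the data. No consistent pairing by the shared replicate numbers was seen, as correlations of same-numbered deviations were not all above 0.1 in any comparison. The reported fit therefore did not pair arrays, though this check cannot exclude that some arrays shared a pool or batch.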

Additional observations from a re-analysis of the deposited data

How the results depend on the processing

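The direction of the members' median held under every alternative run for buds labelled PTHrP-/- against WT buds and for WT skin against WT buds. In buds 60 of the 77 kept members were listed as lower on these same arrays, so the choice set that sign. The skin comparison shares the WT bud arrays, so its sign is not independent of the choice. For buds labelled PTHrP-/- against WT buds the members' median was -0.43 with the arrays centred on 1 median and -0.26 after quantile normalization. Relative to the median of all probe sets it was -0.31 in the reported fit and with centring and -0.27 with quantile normalization. Leaving out 1 array at a time gave -0.34 to -0.31 and no member past the threshold. A single member passed with no filter (Cox5a, lower) and with the 2 groups fitted alone (Ndufb6, higher), where 97 of all probe sets passed against 4. For WT skin against WT buds, 2 members passed with the 2 groups alone and with the replicate block, Ndufs1 beside Tomm7, none passed without the probe sets at which WT skin stood apart, and leaving out 1 array gave medians of -0.26 to -0.12. For skin labelled K14-PTHrP against K14WT skin the median was 0.036 with centred arrays, where that of all probe sets was 0.062. Leaving out 1 array gave medians from -0.11 without the third array labelled K14-PTHrP to 0.010 without the second. No alternative brought a member past the threshold in that comparison. For K14WT against WT skin, 1 member passed with no filter, 5 with centred arrays, of which 4 were lower (Ndufa13, Slc25a39, Slc25a44 and Tomm40), 0 without the probe sets at which WT skin stood apart, and 1 to 3 when 1 array was left out, with Tomm40, Slc25a39, Slc25a44 or Atp5g2 gained in 3 of the 6. Beside Tomm7 and Uqcrfs1, Timm10 passed with quantile normalization and Timm44 with the 2 groups alone, and the replicate block gained Slc25a44 and lost Uqcrfs1. The median there was 0.016 after quantile normalization, against 0.017 over all probe sets. Uqcrfs1 missed the threshold with no filter (limma adjusted p = 0.0646), centred arrays (0.0798), the replicate block (0.0613) and without the probe sets at which WT skin stood apart (0.0517). The cause of these shifts was not tested. The replicate block left the numbers of members past the threshold in buds and in skin labelled K14-PTHrP at 0, with correlations of same-numbered arrays of -0.02, -0.05 and 0.26 in buds. With 3 arrays a group and a median standard error of 0.14, differences of the size seen in skin are hard to tell from the spread.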
